A study of Caenorhabditis elegans with 2 samples.

Results

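The regions described here are sites of EYG-1 chromatin immunoprecipitation signal at non-coding RNA (ncRNA) genes of Caenorhabditis elegans outside the classical small RNA classes. EYG-1, the product of eyg-1 (Y53C12C.1), is a homeodomain protein named after Drosophila eyegone. A region was a member when its summit, the base of highest signal, lay within 100 bp of a gene annotated with the biotype ncRNA and not within 100 bp of a tRNA, snoRNA, snRNA or miRNA gene. Of 24215 regions in the list called on both libraries together (the pooled list), 1181 were members. In all, 364 members also lay in the promoter of a protein-coding gene, taken as 1000 bp upstream to 200 bp downstream of its annotated 5′ end, and 817 did not. A further 524 regions lay near a tRNA, snoRNA, snRNA or miRNA gene, 250 of them also near an ncRNA gene, and the other 22510 regions near neither kind.

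The study used 1 group of hermaphrodite worms of strain OP443, a stable transgenic line in which EYG-1 carries GFP and FLAG at its C-terminus, with no wild-type or untagged group analysed here. Whole late embryos were collected 4 hours after bleaching, so that all cell types were mixed, and chromatin was precipitated with an antibody against GFP. The 2 libraries are named biological replicates 1 and 3, and their own lists held 27360 and 24519 candidate regions, background regions included. The authors' optimal list held 519 peaks that passed a threshold on the irreproducible discovery rate, a measure of how well ranks repeat between replicates. A pooled region was counted in the optimal list when an optimal summit lay within 100 bp of its own. Signal is the value the authors' peak caller gave a region, and it was used only within 1 list. Read depth is unknown, the control library was not analysed here, and 1 group allows no test across samples, so that all comparisons are descriptions.

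The biotype ncRNA collects genes of very different kinds. It holds the RNA subunits of RNase P, which trims the leader of tRNA precursors, of RNase MRP, which cuts ribosomal RNA precursors, and of the signal recognition particle (SRP), which brings ribosomes to the endoplasmic reticulum. RNA polymerase III makes these RNAs from compact genes, read either from elements upstream of the start or from boxes inside the transcribed part, such as the B box that tRNA genes carry. Most other genes of the class have only a sequence name and no known role. The annotation held 7764 such genes with a median length of 140 bp. Of these, 1376 (17.7%) lay within 100 bp of a member and 91 (1.17%) within 100 bp of a member in the optimal list.

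The windows of 101 bases around the summits of 7 of the strongest members are shown first, because these members are among the strongest by pooled signal and 6 of the 7 hold a motif counted below; F52D10.7 holds none of them. Each is read 5′ to 3′ on the strand of the nearest ncRNA gene, with the bases inside that gene in capitals, from the RefSeq WBcel235 genome (ce11).
C14F11.14 at chrX:6207808-6207908, plus strand: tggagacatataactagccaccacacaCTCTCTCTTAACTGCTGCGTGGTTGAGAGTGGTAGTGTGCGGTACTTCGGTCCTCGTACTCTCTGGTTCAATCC
W01D2.9 at chrII:14804712-14804812, plus strand: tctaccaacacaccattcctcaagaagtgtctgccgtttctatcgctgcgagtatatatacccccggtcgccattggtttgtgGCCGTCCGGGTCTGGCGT
F52D10.7 at chrX:11605935-11606035, minus strand: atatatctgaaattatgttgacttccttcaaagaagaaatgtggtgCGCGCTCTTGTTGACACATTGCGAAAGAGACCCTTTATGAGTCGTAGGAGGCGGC
T28D6.13 at chrIII:11371412-11371512, plus strand: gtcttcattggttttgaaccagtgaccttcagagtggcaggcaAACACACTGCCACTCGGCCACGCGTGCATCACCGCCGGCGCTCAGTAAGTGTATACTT
K10H10.14 at chrII:14496969-14497069, plus strand: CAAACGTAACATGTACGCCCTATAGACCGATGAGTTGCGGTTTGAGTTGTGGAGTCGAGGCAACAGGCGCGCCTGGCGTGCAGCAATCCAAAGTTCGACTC
mrpr-1 at chrII:7200166-7200266, plus strand: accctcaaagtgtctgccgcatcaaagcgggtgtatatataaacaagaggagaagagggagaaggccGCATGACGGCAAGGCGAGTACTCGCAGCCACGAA
R144.16 at chrIII:5031695-5031795, minus strand: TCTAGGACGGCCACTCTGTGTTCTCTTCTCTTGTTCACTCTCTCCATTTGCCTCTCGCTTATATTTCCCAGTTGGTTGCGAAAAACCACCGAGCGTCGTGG
The windows of W01D2.9 and mrpr-1 hold tgtctgccg (TGTCNGCCG), which starts 23 bases before the summit of W01D2.9 and 40 bases before that of mrpr-1, and both hold TATATA between it and the gene. The windows of C14F11.14 and K10H10.14 hold GTTCNANNC, the core of a B box with 1 base relaxed, starting 42 bases after the summit and inside the annotated gene. T28D6.13 holds it on the other strand and outside the gene. These relaxed or shared motifs were chosen after the sequences had been seen.

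Among the 100 pooled regions of highest signal, 7 were members, close to the 4.88% that members made up of all pooled regions, and 4 of the 7 lay in protein-coding promoters. The strongest member lay 23 bp inside C14F11.14, a gene of 147 bp, and 171 bp upstream of the 5′ end of T13C5.6. Its signal was 217.1 in the pooled list (rank 13), 88.0 in replicate 1 (rank 17), 128.7 in replicate 3 (rank 25) and 227.6 in the optimal list. It stood near the top of both replicate lists. The member next in strength lay 33 bp upstream of W01D2.9, a gene of 82 bp, and 453 bp upstream of W01D2.3. It had a signal of 205.8 in the pooled list, 70.3 in replicate 1 (rank 39), 133.5 in replicate 3 (rank 21) and 212.3 in the optimal list.

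The member at F52D10.7 lay 566 bp upstream of ftt-2, which encodes a 14-3-3 adaptor protein, and had a pooled signal of 156.5. It ranked 185 in replicate 1 (signal 46.8) and 47 in replicate 3 (107.7). Outside promoters, the strongest member lay at 3 overlapping or adjacent genes, T28D6.10, T28D6.13 and T28D6.15, with a pooled signal of 133.6, a signal of 44.6 in replicate 1 (rank 217) and a signal of 88.1 in replicate 3 (rank 83). The member at K10H10.14 followed with a pooled signal of 133.4, ranking 145 in replicate 1 and 105 in replicate 3. Immunoprecipitated DNA carries no strand, so that signal cannot be assigned to any 1 of several genes at a site, and 302 members had 2 or more ncRNA genes within 100 bp, 279 of them with genes on both strands.

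**Figure D1:**
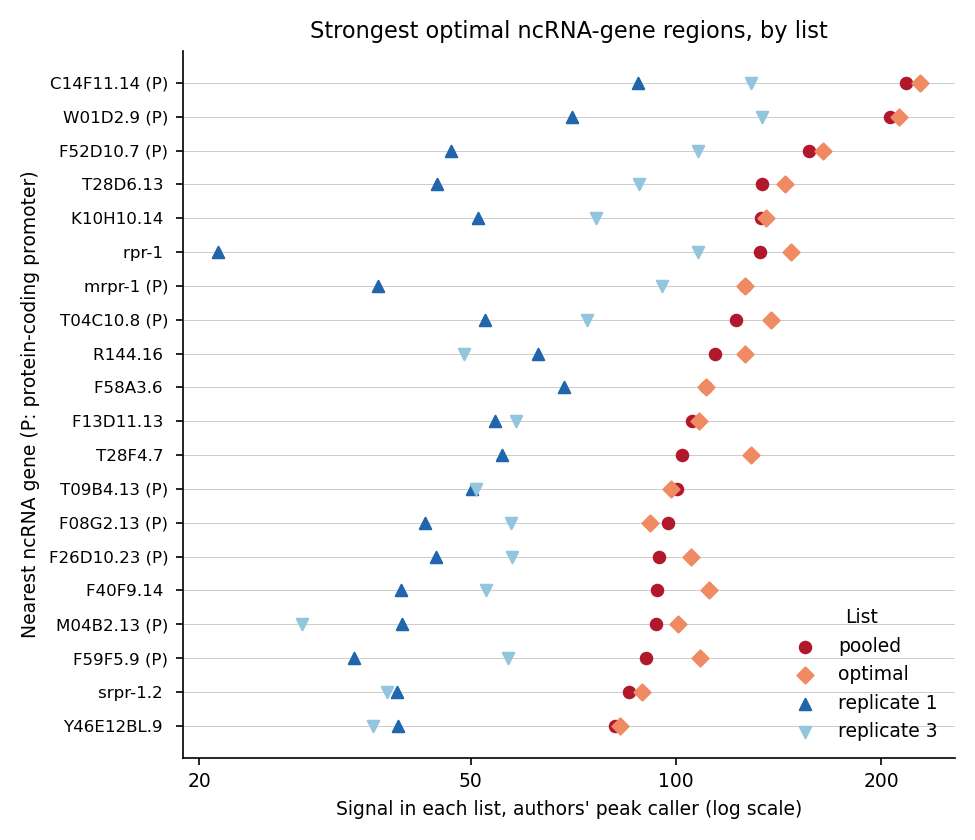
Signal (log scale) of the 10 strongest optimal members in protein-coding promoters (P) and the 10 strongest outside them, by nearest ncRNA gene from the highest pooled signal at the top; markers give the pooled, optimal, replicate 1 and replicate 3 lists, a missing marker means no summit within 100 bp. C14F11.14 leads at 217.1 in the pooled list, and rpr-1 has the lowest replicate 1 signal of those shown, 21.3. Signals of different lists are on their own scales.

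The remaining promoter members among the 10 strongest had pooled signals of 90.3 to 126.0. The member at T04C10.8 (pooled signal 122.3, ranks 132 in replicate 1 and 109 in replicate 3) lay 414 bp upstream of epn-1, the gene of the endocytic adaptor epsin. The member at F26D10.23 (94.3, ranks 220 and 180) lay 386 bp upstream of hsp-1, which encodes a constitutive Hsp70 chaperone. The member at M04B2.13 (93.5) lay 275 bp upstream of mep-1, a zinc finger protein gene, at ranks 270 and 955. The member at F59F5.9 (90.3, ranks 418 and 187) lay 382 bp upstream of syd-2, which encodes the synaptic scaffold liprin-alpha. The members at T09B4.13 (100.2) and F08G2.13 (97.4) lay in the promoters of T09B4.3 and F08G2.5.

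Among the strongest members outside promoters, F58A3.6 had a pooled signal of 110.5 and T28F4.7 one of 102.2. Both had a summit in replicate 1 within 100 bp, at rank 49 and rank 102, but the nearest summits of replicate 3 lay 181 and 137 bp away. The members at F13D11.13 (105.6), F40F9.14 (93.7) and Y46E12BL.9 (81.4) were matched in both replicates, at ranks of 114 to 283 in replicate 1 and 176 to 543 in replicate 3.

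Of 8 genes for RNase P, RNase MRP, Y and SRP RNA, 7 had a pooled region within 100 bp and 5 had one in the optimal list. The RNase P RNA gene rpr-1, a gene of 253 bp on chromosome I from 13463955 to 13464207, had a pooled signal of 132.7, 28 bp inside the gene. Its signal was 21.3 in replicate 1, at rank 1314 and 102 bp inside the gene, and 107.6 in replicate 3, at rank 48 and 15 bp inside. The RNase MRP RNA gene mrpr-1 lay on chromosome II from 7200233 to 7200418, 333 bp upstream of pcrg-1 and 651 bp upstream of E04F6.6 as measured from the summit. It had a pooled signal of 126.0, 17 bp before the gene, a signal of 36.6 in replicate 1 (rank 333) and a signal of 95.4 in replicate 3 (rank 69). Both genes ranked higher in replicate 3 than in replicate 1.

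All 5 SRP RNA genes had a pooled region, and 3 had one in the optimal list. The highest pooled signals were 114.0 at srpr-2.2, 85.3 at srpr-1.2, 72.5 at srpr-2.1, 46.1 at srpr-1.1 and 20.5 at srpr-3. The summit at srpr-2.2 lay 37 bp before that gene and inside R144.16 on the same strand, at ranks of 70 (replicate 1) and 272 (replicate 3). The region at srpr-1.2 ranked 288 and 491. Replicate 3 held 2 regions at that gene, the stronger with a signal of 46.7 at rank 310, 30 bp before the gene. The gene srpr-2.1 was the only ncRNA gene with 2 optimal members (pooled signals of 72.5 and 69.6). The nearest summits of replicate 1 lay 118 and 105 bp from theirs, just past the distance for a match, and replicate 1 held 2 regions at the gene, the stronger with a signal of 37.4 at rank 319. A summit of replicate 3, at rank 470, lay within 100 bp of 1 of the 2 members. The SRP RNA genes are similar copies, 2 pairs of them near-identical. Of aligned bases, srpr-2.1 and srpr-2.2 shared 99.0% and srpr-1.1 and srpr-1.2 shared 98.3%. Genes of different pairs shared 94.0% to 94.3%, and srpr-3 shared 81.7% to 82.5% with the others. Of the 31-base words in the summit window, 7.04% occurred once in the genome at srpr-1.2, and 42.3% and 63.4% at the 2 regions of srpr-2.1, against 100% at the region of srpr-2.2. How reads were shared between the copies is not given in the sources used here, so that the split of signal between them is uncertain. The Y RNA gene yrn-1 and the longer RNAs rncs-1 and tts-1 had no pooled region within 100 bp, which is no evidence of the protein's absence, and linc-171 had a region of 44.9 that was not in the optimal list.

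Members were in the optimal list more often than other regions, in promoters as well as outside them. In all, 65 of 1181 members were in it (5.50%, 95% exact binomial interval 4.27% to 6.96%), against 288 of 22510 other regions (1.28%, 1.14% to 1.43%) and 2.10% of all 24215 pooled regions. In promoters the counts were 33 of 364 members (9.07%, 6.32% to 12.5%) and 183 of 6227 other regions (2.94%, 2.53% to 3.39%). Outside promoters they were 32 of 817 members (3.92%, 2.69% to 5.48%) and 105 of 16283 other regions (0.645%, 0.528% to 0.780%). The member shares lay below that of the 524 regions near tRNA, snoRNA, snRNA or miRNA genes, of which 155 (29.6%) were in the optimal list. The intervals cover counting error only and take regions as independent, whereas 210 members overlapped another member and 116 ncRNA genes lay near 2 or more members. Most members, 1116 of 1181, were not in the optimal list, and the same held for 22222 of 22510 other regions.

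**Figure D2:**
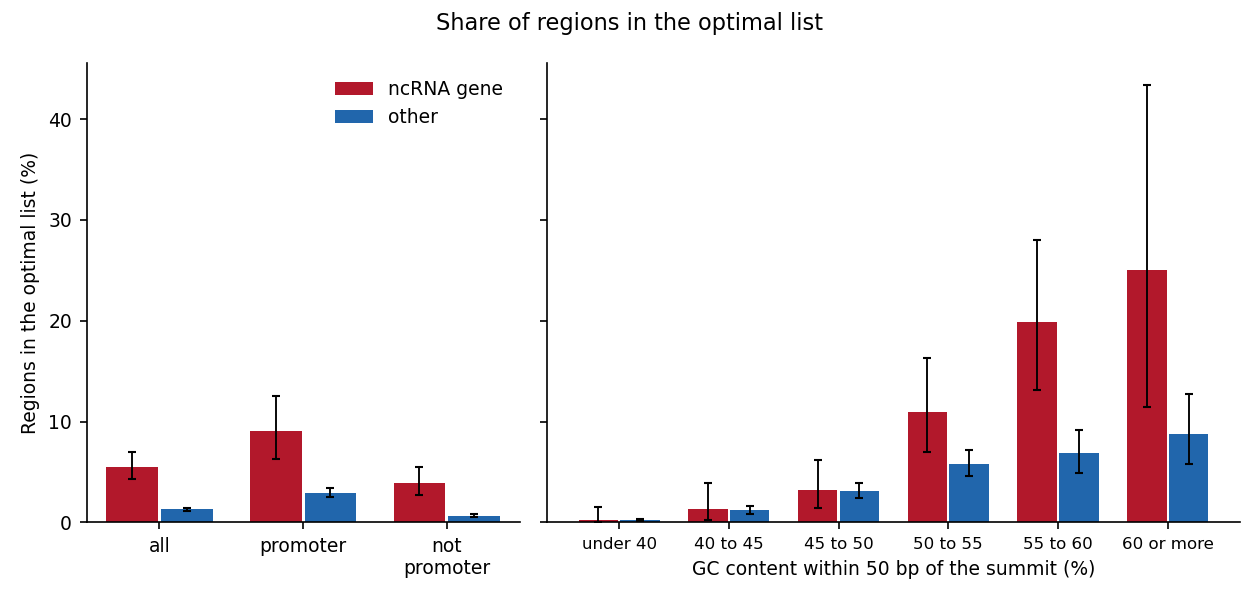
Share of regions in the optimal list (%), with 95% exact binomial intervals, for members (red) and other regions near no small RNA gene (blue), by position on the left and by GC content within 50 bp of the summit on the right. The member share is 5.50% against 1.28% in all; the member bars are higher from a GC content of 50% upward, where the intervals overlap in all bands but that of 55% to 60%.

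Pooled signal, which comes from the same 2 libraries as the optimal list and is not independent of it, followed the same order. Its median was 22.0 over all members, with quartiles of 16.9 and 31.2, against 18.0 over other regions and 18.2 over all pooled regions. In promoters the medians were 25.5 for members and 19.3 for other regions, and outside promoters 21.0 for members and 17.6 for other regions. The median member stood at percentile 70.5 of the pooled list. At the top, 52 members (4.40%) were among the 519 pooled regions of highest signal, against 1.35% of other regions and 2.14% of all pooled regions.

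**Figure D3:**
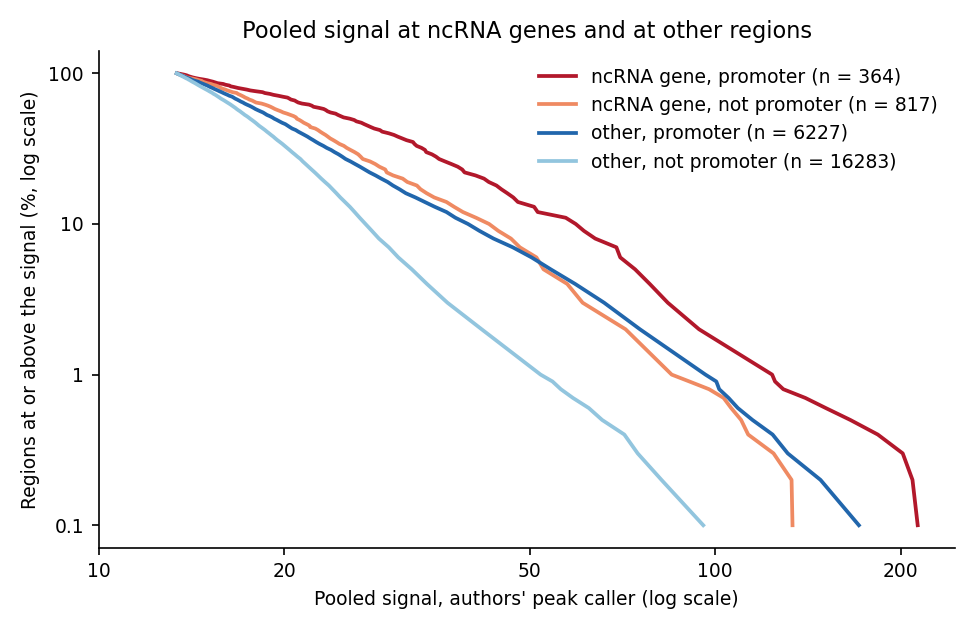
Share of regions (%, log scale) at or above a given pooled signal (log scale) for members in and outside protein-coding promoters (red, orange) and other regions in and outside promoters (dark and light blue). Members outside promoters (median 21.0) follow other promoter regions (median 19.3) closely, and members in promoters (median 25.5) lie above all of them.

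Each of the 2 libraries gave the same order, but the pooled and optimal lists were made from these libraries, so that this is no independent support. A summit of replicate 1 lay within 100 bp of 55.5% of members and 45.3% of other regions, and a summit of replicate 3 within 100 bp of 60.4% of members and 50.9% of other regions. Both replicates matched 351 members (29.7%), against 16.7% of other regions. Matched members had a median percentile of 82.0 in the signal of replicate 1 and of 78.6 in that of replicate 3, against 66.7 and 64.2 for other regions. Among the 519 strongest regions of replicate 1 were 54 members (4.57%), against 2.04% of all pooled regions, and among those of replicate 3 were 50 members (4.23%), against 2.07% of all pooled regions. Across the 351 members matched in both, percentiles correlated with a Spearman rho of 0.45, a description over regions that share their libraries and their base composition.

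Replicates differed at single members. Of the 65 optimal members, 49 were matched in both replicates, 4 in replicate 1 alone, 11 in replicate 3 alone and 1 in neither. Both replicates thus matched 75.4% of optimal members, against 89.6% of the 288 other regions in the optimal list. In the 519 strongest regions, 19 of the 65 stood in both replicates, 16 in replicate 1 alone, 19 in replicate 3 alone and 11 in neither. The share in both was 29.2% of optimal members, against 35.8% of the other regions in the optimal list. Among optimal members matched in both replicates, the largest gap in percentile was at F13D11.21, which ranked 2680 in replicate 1 and 8648 in replicate 3. F42C5.16 ranked 291 and 6359, and F33A8.11 ranked 765 and 3573. In the other direction, ZK377.13 ranked 4552 in replicate 1 and 386 in replicate 3, T28B11.22 ranked 3617 and 357, and rpr-1, given above, was the third. Ranks come from lists of different lengths and are read within each list.

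**Figure D4:**
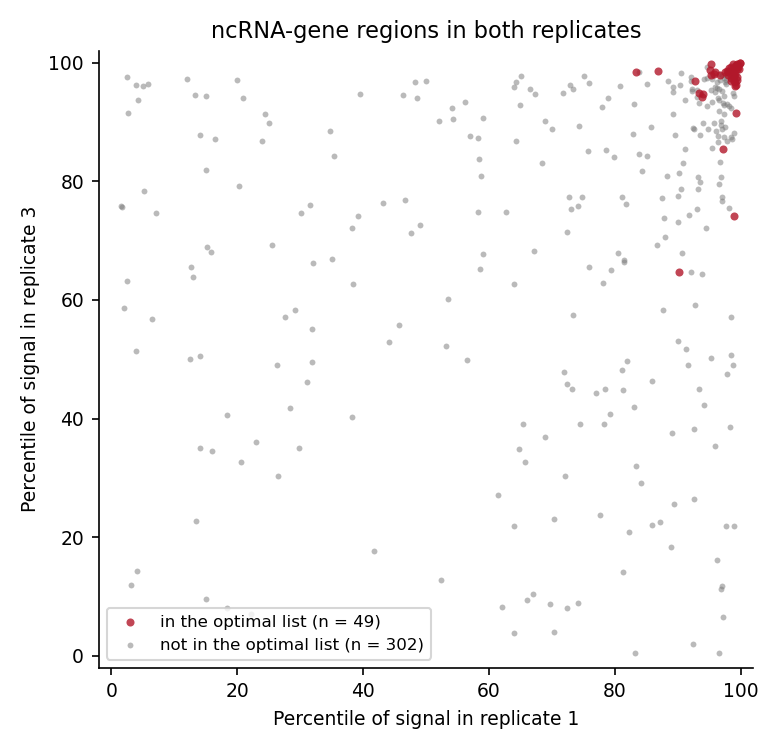
Percentile of signal in replicate 1 (x axis) and replicate 3 (y axis) of the 351 members matched in both replicate lists; members in the optimal list are red and the others grey. Most of the 49 optimal members lie near the upper right corner, which their choice by replicate ranks favours, with F13D11.21 and F42C5.16 lower in replicate 3; the others spread over the plane.

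Several strong members were not in the optimal list. The strongest was Y37A1B.332, with a pooled signal of 83.6 at ranks 358 in replicate 1 and 207 in replicate 3. F57B10.17, 58 bp upstream of the trehalase gene tre-1 and 381 bp upstream of dad-1, which encodes an oligosaccharyltransferase subunit, had 82.1 at ranks 1449 and 165. The region of F54C9.16 and F54C9.17, 449 bp upstream of the ribosomal protein gene rpl-5 and 390 bp upstream of the collagen gene col-38, had 77.2 at ranks 581 and 378. In all, 114 members outside the optimal list had a pooled signal at or above 39.1, the lowest of any optimal member. The same count is not given for other regions, so that it cannot be read as a trait of members. Of 22 members among the 519 strongest regions of both replicates, 19 were in the optimal list and 3 were not. Of 108 other regions among the strongest of both, 103 were in it.

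Members were rich in G and C, and optimal members more so. Median GC content within 50 bp of the summit was 54.5% in optimal members, 44.6% in members outside the optimal list and 45.5% in all members, against 35.6% in other regions and 49.5% in the other regions of the optimal list. GC content therefore moved with both comparisons above. Below a GC content of 40%, 1 of 364 members was in the optimal list (0.275%), against 0.221% of other regions. Between 40% and 45% the shares were 1.35% of members (3 of 222) and 1.20% of other regions, and between 45% and 50% they were 3.19% (8 of 251) and 3.08%.

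From 50% upward the member share was higher, with intervals that did not overlap between 55% and 60% and overlapped in the bands beside it. Between 50% and 55%, 21 of 191 members (11.0%, 95% exact interval 6.94% to 16.3%) were in the optimal list, against 5.82% of other regions (4.62% to 7.22%). Between 55% and 60% they were 24 of 121 members (19.8%, 13.1% to 28.1%) and 6.85% of other regions (4.94% to 9.21%). At 60% or more they were 8 of 32 members (25%, 11.5% to 43.4%) and 8.80% of other regions (5.78% to 12.7%). These bands were set after the data had been seen, and the difference between bands was not tested. In the richest GC quartile, above 44.6%, the share was 15.1% of 199 promoter members against 9.47% of other promoter regions, and 7.83% of 396 members outside promoters against 2.64% of other regions there.

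The summits of optimal members lay near the start of the ncRNA gene more often than those of the other members. Where several genes were equally near, as when a summit lay inside each, the gene with the closest 5′ end was taken. This rule favours positions near the start, and 25 of 65 optimal members had 2 or more ncRNA genes within 100 bp. Of the 1116 other members, 277 did, and the part of the rule was not tested. The summit lay inside the nearest ncRNA gene for 46 of 65 optimal members (70.8%) and for 621 of all 1181 members (52.6%). That gene had a median length of 186 bp for optimal members and 149 bp for all members, and the part of gene length was not tested. The summit lay upstream of the gene for 16 optimal members and downstream for 3, against 340 and 220 of all 1181 members. The upstream share was thus not higher in optimal members. From 25 bp before to 49 bp after the first base of the gene lay 29 of 65 optimal summits (44.6%), against 26.0% of the summits of the other members. The bounds of this window were not planned. The median summit of an optimal member lay 44 bp inside the gene, with quartiles at 0 and 122 bp. Over all members the median was 59 bp, with quartiles at -10 and 149 bp, so that the ranges overlapped widely. By distance, 7.41% of members with the summit inside the gene were in the optimal list, 3.95% of those 1 to 50 bp away and 2.73% of those 51 to 100 bp away. GC content fell along the same steps, with medians of 47.5%, 44.6% and 39.6%, and its part in this order was not tested.

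**Figure D5:**
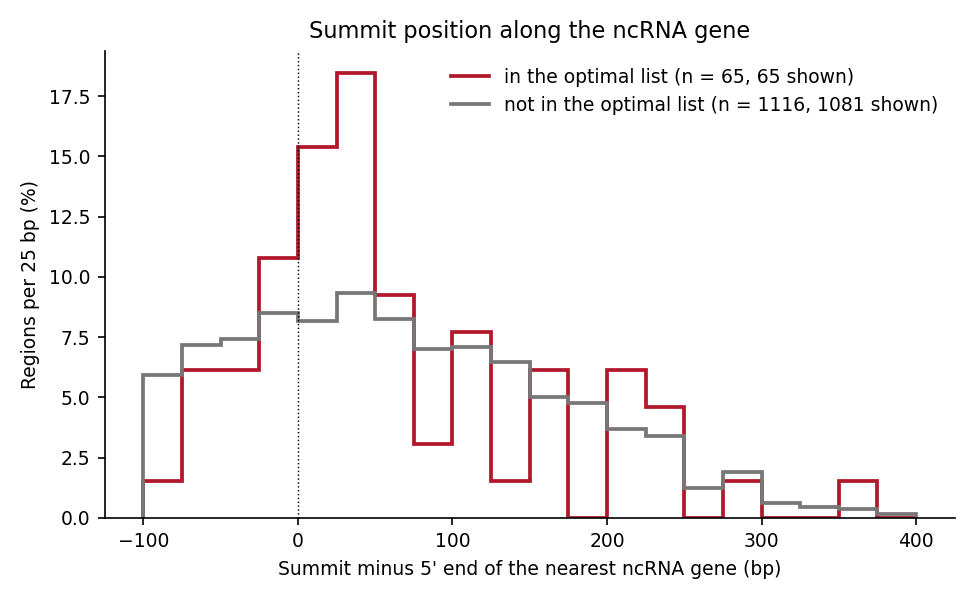
Summit position relative to the 5′ end of the nearest ncRNA gene (bp, positive inside or beyond the gene) as the share of regions per 25 bp (%), for members in the optimal list (red) and the other members (grey). The optimal members peak just after the 5′ end, where 44.6% lie from 25 bp before to 49 bp after it against 26.0% of the other members. Among equally near genes the one with the closest 5′ end was taken, which favours positions near the start, and the bounds of the window were not planned.

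Relative to protein-coding genes, 50 of the 65 optimal members and 726 of all 1181 members were intergenic. So were 217 of the 288 other regions in the optimal list, a similar share, and 9241 of all 22510 other regions. A further 12 optimal members lay in an intron or other transcribed part, 2 in a 5′ UTR, 1 in a coding exon and none in a 3′ UTR. Of 24 optimal members in the promoter of just 1 protein-coding gene, the nearest ncRNA gene ran in the same direction as that gene at 11 and in the opposite direction at 13. Members outside the optimal list ran in the same direction at 32.0% of 256 such sites. The X chromosome held 29.6% of members and 32.3% of optimal members, against 15.2% of other regions, and it also held 32.5% of all annotated ncRNA genes.

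The letters around the summits differed between optimal and other members. Motifs were counted on both strands within 50 bp of the summit, as a description, since a match is not a bound site. The core TAATTA, typical of homeodomain binding, was in none of the 65 optimal members, in 3.76% of the other members and in 5.17% of all pooled regions. A count of 0 allows a share of up to 4.62% by a rough rule, 3 divided by the number of regions. That limit is lower than the upper end of an exact interval, so that 5.17% cannot be called outside the range. TAATTA was in 2.43% of the other regions of the optimal list. It was in 1.69% of the members of the richest GC quartile that were not in the optimal list, and the part of base composition was not tested. Its palindromes, TAAT and ATTA with 2 or 3 bases between them, were also in none of the 65 and in 0.524% and 0.463% of all pooled regions. The word GAGAGA was in 22 optimal members (33.8%), 16.3% of the other members and 8.56% of all pooled regions. It was in 25.3% of the other regions of the optimal list and in 22.3% of the members of the richest GC quartile that were not in the optimal list. Runs of 5 thymines (TTTTT) were in 15.4% of optimal members, 50.9% of the other members and 70.4% of all pooled regions, and base composition moves with both motifs.

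The word CTGCGTC was in 12 of 65 optimal members (18.5%), 3.05% of the other members and 1.99% of all pooled regions. It was in 4.49% of the GC-rich members not in the optimal list and in 6.60% of the other regions of the optimal list. By position, it was in 11 of 32 optimal members outside promoters (34.4%) and in 1 of 33 in promoters (3.03%). In all, 9 of the 12 matches are shown so that their surroundings can be compared, with 12 bases to each side, on the strand of the match, and with the match in capitals; W08E3.5 and Y106G6E.7 are among the others.
F40F9.14 at chrV:9731164-9731194: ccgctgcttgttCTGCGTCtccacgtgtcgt
srpr-1.2 at chrIII:4369577-4369607: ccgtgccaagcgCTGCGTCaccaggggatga
Y46E12BL.9 at chrII:15263225-15263255: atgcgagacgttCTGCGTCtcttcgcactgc
T19F4.6 at chrV:6879595-6879625: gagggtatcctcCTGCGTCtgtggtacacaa
C14F5.11 at chrX:7951675-7951705: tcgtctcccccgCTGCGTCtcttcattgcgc
F13D11.21 at chrX:5818422-5818452: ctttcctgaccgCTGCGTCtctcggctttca
Y57G11A.225 at chrIV:14496731-14496761: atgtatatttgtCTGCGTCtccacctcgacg
W06H8.13 at chrV:6227727-6227757: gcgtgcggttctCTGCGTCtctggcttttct
T23F11.9 at chrIII:4666803-4666833: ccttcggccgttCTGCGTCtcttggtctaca
Of the 12 optimal members with CTGCGTC, 9 hold the longer CTGCGTCTC, which was in 13.8% of optimal members, 2.24% of the other members and 1.37% of all pooled regions. The longer word was in 5.56% of the other regions of the optimal list and in 3.37% of the GC-rich members not in the optimal list. It was chosen after these sequences had been seen.

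Elements of tRNA-type genes were rarer in members than near small RNA genes, where members were not taken. The B box core GTTCGANNC was in 2 optimal members (3.08%), 0.538% of the other members and 1.26% of all pooled regions. It was in 26.1% of the regions near small RNA genes and in 32.3% of the 155 of these in the optimal list. The relaxed form GTTCNANNC was in 7 optimal members (10.8%), 2.51% of the other members and 3.77% of all pooled regions. That form was in 36.6% of the regions near small RNA genes and in 44.5% of the 155 of these in the optimal list. The other regions of the optimal list held it in 2.43%, and the GC-rich members not in the optimal list in 1.69%. The 7 matches are given with 12 bases to each side, on the strand of the match, because 3 of them resemble each other beyond the motif. At T28D6.13, T22B2.9 and C53A5.18 the match lies on the strand opposite to that of the nearest ncRNA gene.
C14F11.14 at chrX:6207888-6207920: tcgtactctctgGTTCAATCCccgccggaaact
ZK816.9 at chrX:3348083-3348115: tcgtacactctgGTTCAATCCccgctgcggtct
T22B2.9 at chrX:3914472-3914504: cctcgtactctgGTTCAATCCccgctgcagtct
T28D6.13 at chrIII:11371410-11371442: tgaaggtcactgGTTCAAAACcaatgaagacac
K10H10.14 at chrII:14497049-14497081: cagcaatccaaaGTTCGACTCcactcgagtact
C18B12.9 at chrX:15040911-15040943: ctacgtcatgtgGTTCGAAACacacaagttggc
C53A5.18 at chrV:14524452-14524484: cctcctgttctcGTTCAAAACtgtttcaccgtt
Of the 33 bases, 27 were identical between C14F11.14 and ZK816.9 and between ZK816.9 and T22B2.9, and 23 between C14F11.14 and T22B2.9, against 10 to 17 in the pairs that involve another of the 7. All 3 lie on the X chromosome. C14F11.14 had the pooled signal of 217.1 given above, ZK816.9 had 76.1 (rank 582 in replicate 1 and 346 in replicate 3) and T22B2.9 had 75.5 (ranks 194 and 914). Of the 31-base words in their summit windows, 78.9%, 87.3% and 100% occurred once in the genome.

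TGTCNGCCG, shown above at W01D2.9 and mrpr-1, was in no other optimal member. Near small RNA genes it was in 9 of 524 regions (1.72%) and in 2 of the 155 in the optimal list (1.29%). TGTCNGCCG was in 0.448% of the other members, 0.318% of all pooled regions and none of the 288 other regions in the optimal list. That count of 0 allows up to 1.04% by the rough rule given above. TATAAA was in 1.54% of optimal members, 2.78% of the other regions of the optimal list, 3.00% of the GC-rich members not in the optimal list and 11.0% of all pooled regions, and TTTCGCGC was in no optimal member and 0.698% of all pooled regions. CACGTG was in 1.54% of optimal members, against 1.16% of the other members and 1.78% of all pooled regions. TATATA was in 4.62% of optimal members, 3.36% of all pooled regions and 0.694% of the other regions of the optimal list.

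The distance of 100 bp that bounds the members is a convention. Of 47 members whose summit lay 91 to 100 bp from the gene, 1 was in the optimal list and the median pooled signal was 17.8. Of 52 regions 101 to 110 bp away, 3 were in the optimal list and the median was 18.3.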

How the data were processed

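ChIP-seq peak lists of 2 libraries of 1 group were used. As the deposited notes state, the authors called candidate regions on each replicate and on both together, background included, and thresholded by the irreproducible discovery rate to give the optimal list; aligner, caller and versions are not given in the sources used here. Each region's height is the deposited signal of the authors' caller. The deposited −log10 q-value entered no result, and the summit offset (another deposited value) gave the summit. Coordinates are ce11, counted from 1.

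Summits were compared with the Ensembl annotation of WBcel235 (release 115) and windows were read from the RefSeq genome, with Python 3.11.15, pandas 2.3.3, numpy 2.4.6, scipy 1.17.1 and Biopython 1.88. Matching and counting were tested on simulated data. No test across samples was possible. GC quartiles were set over all pooled regions. A word of 31 bases counted as single-copy if it occurred once in the genome on either strand.

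The members, lists and rules were chosen with earlier results of these data known. The genes named are the nearest ncRNA genes of the 10 strongest optimal members in promoters and the 10 outside them, ncRNA genes with symbols, listed structured RNA genes, genes with 2 or more optimal members, the 3 strongest members not in the optimal list and the 3 largest replicate differences each way. The SRP RNA symbols (srpr-) were taken from the annotation. Genes named for their sequence matches were chosen after their values were seen.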

Additional observations from a re-analysis of the deposited data

How the results depend on the processing

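The share of members in the optimal list stayed above that of other regions in 14 of 16 alternatives, counted separately in all, in promoters and outside them. The 2 alternatives that redefine promoters cannot change the share in all. At 0 bp from the gene it was 7.41% (5.84% outside promoters), with a median signal of 23.4 and 34.3% matched in both replicates. At 300 bp these were 4.27%, 20.9 and 26.1%. With the 259 strongest optimal peaks the shares were 2.03% in all, 4.40% in promoters and 0.979% outside. With any overlap of an optimal peak they were 8.30%, 12.9% and 6.24%. In GC quartile 1 all 3 shares were 0%. There the count of 0 allows up to 2.83% of all members by the rough rule given above, and 3.42% by the exact interval. In quartile 2 they were 0.667%, 0% and 0.926%, in quartile 3 0.909%, 3.23% and 0%, and in quartile 4 10.3%, 15.1% and 7.83%. Quartiles 1 and 3 held the cases in which all members had no higher share than other regions (0.115% and 0.921%). Outside promoters the cases lay in the same quartiles (other regions 0.0225% and 0.421%). In promoters they lay in quartiles 1 and 2 (other regions 0.361% and 0.627%). With the 519 highest pooled signals, chosen after the data were seen, the share outside promoters was 2.69%.

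Leaving out each replicate, with its partner's list and its 519 strongest regions in place of the pooled and optimal lists, gave 4.75% to 4.82% in all, 6.30% to 9.50% in promoters, 2.68% to 4.10% outside promoters, medians of 11.3 to 14.0 on the replicates' own scales, and 55.6% to 61.9% of members matched to the pooled list. Summits matched within 50 bp put 16.3% of members in both replicates, and within 200 bp 44.8%. Over all 1181 members, windows of 100 bp in place of 50 bp to each side held more motifs by construction: TAATTA 6.52% against 3.56%, GAGAGA 30.3% against 17.3%, TATAAA 14.0% against 6.86%, TTTTT 73.0% against 48.9%, CTGCGTC 6.60% against 3.90%, TTTCGCGC 1.69% against 0.762% and CACGTG 2.62% against 1.19%. For the motifs added after the data were seen, they held GTTCNANNC in 5.33% against 2.96%, TATATA in 4.66% against 2.37% and CTGCGTCTC in 4.74% against 2.88%. For the other changes the cause was not tested. No paired analysis was possible because there is 1 group, and the replicate block was not run. Depth is unknown, so that weak regions cannot be weighed by it.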
